A study of Mus musculus with 186 samples.

Results

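The 10 genes described here encode A-kinase anchoring proteins: Akap1, Akap5, Akap6, Akap7, Akap8, Akap9, Akap10, Akap11, Akap12 and Akap13. They were taken by name from a table of 28338 mouse genes, and 10 of 10 were found and passed the filter on low counts in every comparison. Akap11 mutant mice and their controls were profiled by bulk RNA-seq of dissected brain tissue, in 186 libraries. The groups are WT, HET (Akap11 +/-) and KO (Akap11 -/-) mice at 4 and 12 weeks of age, each in striatum (STR), thalamus (TH), hippocampus (HP), substantia nigra (SN), and the prefrontal (PFC) and somatosensory (SSC) cortices. Each of the 36 groups held 5 or 6 libraries, 96 libraries at 4 weeks and 90 at 12 weeks. The sources used here do not give the deleted part of Akap11, the cells in which it was deleted, the strain or the sex. The labels do not say that libraries of a group came from separate animals, so the spread between libraries may in part be technical. The questions asked of the family were where each member is expressed and whether the RNA of other anchoring proteins changes when Akap11 is lost. Protein levels, their place in the cell and PKA binding were not measured in these libraries.

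Protein kinase A (PKA) is a tetramer of regulatory and catalytic subunits that is switched on by cyclic AMP. Anchoring proteins bind the regulatory subunits through an amphipathic helix and hold the kinase at one place in the cell, often together with phosphatases, phosphodiesterases and the kinase's substrates. In striatal projection neurons PKA acts downstream of dopamine and adenosine receptors, and loss-of-function variants of AKAP11 are a known genetic risk factor for psychotic disorders. AKAP11 also binds glycogen synthase kinase 3 and protein phosphatase 1 and takes the regulatory subunit RI-alpha to autophagy. Levels below are in CPM, counts relative to the library total after scaling across all libraries, and differences are log2 values. A gene is called at an adjusted p under 0.05, adjusted by the Benjamini-Hochberg method over all genes tested, from edgeR for a single region and from limma for contrasts over regions. Brain tissue mixes cell types, so fewer cells of a type and less RNA per cell cannot be told apart.

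Total counts per library ranged from 20794700 to 73344400, and the lowest count of any member in any library was 50.1, for Akap5. Marker genes of each region were checked. The striatal marker score was higher in 30 of 30 striatal libraries than in any other library, the dopamine neuron score in 32 of 32 nigral libraries, and the thalamic score in 29 of 31 thalamic libraries. Several 4-week libraries stood apart from their group. In striatum, KO 51, KO 161, KO 163 and WT 92 had high cortical marker scores. The 6 cortical excitatory neuron markers summed to between 705 and 1491 CPM in these 4 libraries, and 6 of 6 were higher there than in every other 4-week striatal library. Their sum was 3.52 to 20.9 CPM in the other WT libraries, 3.89 to 115 in HET and 3.83 to 5.05 in the other 2 KO libraries. In thalamus, WT 913, WT 914 and WT 23 stood apart, and in substantia nigra WT 42, WT 92, KO 44 and KO 91. For many of the results that rest on these libraries, values without them are also given. Other 4-week values, among them the upper bounds over the mean of the 6 regions, are given with all libraries only. A 4-week value given once may therefore depend on these libraries.

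Akap11 lies at chr14:78492246-78536808 on the minus strand of GRCm38, a protein-coding gene (ENSMUSG00000022016.16) that overlaps 0 other annotated genes and whose longest transcript has 9364 bases. Of the 10 members, 9 have an entry in the RefSeq promoter table used here (GRCm38.p6), with 13 start sites between them. The 250 bases before the main Akap11 start, chr14:78536861-78537110 on the minus strand, and before the Akap5 start, chr12:76324641-76324890 on the plus strand, are shown because these are the 2 members with the highest striatal level per length. Capitals mark TGACG read on either strand, the half-site of the cyclic AMP response element through which PKA signalling reaches promoters.
Akap11: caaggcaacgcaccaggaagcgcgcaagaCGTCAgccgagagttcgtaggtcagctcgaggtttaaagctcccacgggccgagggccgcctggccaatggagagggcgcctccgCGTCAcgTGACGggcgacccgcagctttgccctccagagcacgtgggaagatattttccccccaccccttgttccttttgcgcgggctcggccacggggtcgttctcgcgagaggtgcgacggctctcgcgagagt
Akap5: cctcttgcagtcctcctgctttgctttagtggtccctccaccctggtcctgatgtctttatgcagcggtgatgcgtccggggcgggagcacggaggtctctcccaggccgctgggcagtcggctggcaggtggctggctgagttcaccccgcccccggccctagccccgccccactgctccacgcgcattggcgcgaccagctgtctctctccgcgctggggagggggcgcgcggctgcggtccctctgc
The Akap11 window holds 3 such matches and the Akap5 window 0, and the other 11 windows of the members also hold 0. The full palindrome TGACGTCA, which contains the half-site, was in 0 of the 13 windows. Among 32851 windows of the same length in the table, 17.8% hold TGACG and 1.55% hold TGACGTCA. A match is a string of letters and not a measured binding site.

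In the mutants Akap11 RNA followed the genotype labels. At 4 weeks in striatum, Akap11 measured 417, 404, 377, 437 and 382 CPM in the 5 WT libraries, 225, 204, 198, 218 and 198 in HET, and 21.5, 16.9, 21.5, 21.3 and 21.7 in KO. At 12 weeks it measured 308, 357, 314, 382 and 343 CPM in WT, 177, 178, 176, 195 and 188 in HET, and 21.0, 24.3, 23.3, 15.7 and 21.3 in KO. The 3 genotypes did not overlap at either age. The same held for KO against both other genotypes in 12 of 12 sets of region and age, and for HET against WT in 11 of 12. Across all regions and ages, single libraries ranged from 43.6 to 437 CPM in 63 WT libraries, from 89.0 to 225 in 63 HET libraries and from 11.9 to 24.6 in 60 KO libraries.

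**Figure D1:**
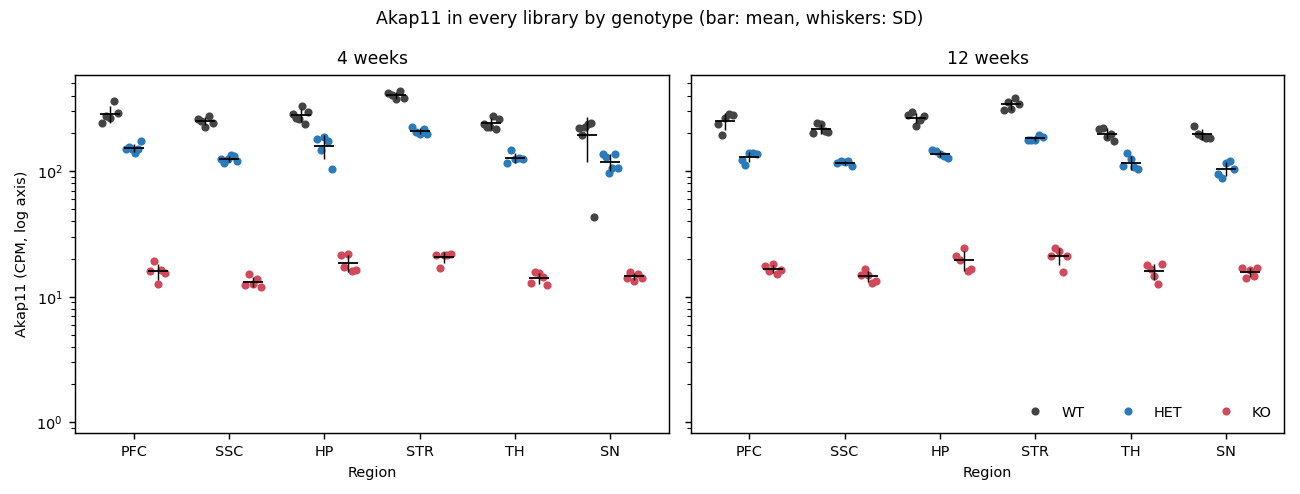
Akap11 in every library, in CPM on a log axis, by region and genotype at 4 weeks (left) and 12 weeks (right); points are libraries, bars the mean and whiskers the SD. KO libraries sit between 11.9 and 24.6 CPM in every region, below all HET and WT libraries of the same region and age, and 1 WT library of 4-week substantia nigra sits at 43.6.

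The remaining Akap11 signal in KO was 5.10% of the WT mean in 4-week striatum and 8.01% in 12-week substantia nigra, the ends of the range. Since the values are totals per gene, they do not show from which exons these counts came. The log2 difference, KO against WT, ran from -4.30 in 4-week striatum to -3.65 in 12-week thalamus and substantia nigra, and Akap11 was called in each of the 12 comparisons, with a largest adjusted p of 1.95e-05. Over the mean of the 6 regions it was -4.04 at 4 weeks (95% interval -4.21 to -3.87) and -3.82 at 12 weeks (-3.93 to -3.71). The loss in striatum was not shown to differ from that in the other 5 regions together: the difference of the log2 differences was -0.31 at 4 weeks (adjusted p = 0.606) and -0.25 at 12 weeks (adjusted p = 0.265). The difference between ages was 0.22 with an adjusted p of 0.835.

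HET libraries held 50.1% to 61.6% of the WT mean of Akap11, with log2 differences from -0.99 in 4-week somatosensory cortex to -0.69 in 4-week substantia nigra. Averaged over the 6 regions the HET difference was -0.85 at 4 weeks and -0.90 at 12 weeks, both called (adjusted p = 5.49e-13 and 1.98e-27). In single regions it was called in 10 of 12 comparisons. The exceptions were 4-week hippocampus, at -0.82 (adjusted p = 0.273 with edgeR and 5.04e-05 with DESeq2), and 4-week substantia nigra, at -0.69 (adjusted p = 0.548). In 12-week thalamus the call, at -0.77 with an adjusted p of 0.0208, was lost in 8 of 10 fits that left out 1 library, with a largest adjusted p of 0.111.

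In 4-week substantia nigra, Akap11 measured 195, 220, 224, 237 and 241 CPM in 5 WT libraries and 43.6 in WT 92, against 96.5 to 138 in HET and 13.3 to 15.7 in KO. WT 92 therefore lay below every HET library and above every KO library. It was also the lowest of the 6 WT libraries for 10 of 10 members, from 19.5% of the mean of the others for Akap11 and 22.9% for Akap10 to 66.6% for Akap1. Across all genes its long transcripts were low relative to its short ones, with a log2 gap of -2.36 between 811 genes with transcripts of at least 8000 bases and 1513 genes of 1000 to 2000 bases. In the other 185 libraries this gap lay between -0.38 and 0.25. The ratio of Akap11 to Akap6, another long transcript, was 0.717 in WT 92, 0.942 to 1.09 in the other WT libraries, 0.515 to 0.688 in HET and 0.067 to 0.087 in KO. Without the libraries that stand apart, the HET difference of Akap11 in 4-week substantia nigra was -0.89 (adjusted p = 0.0242).

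The wild-type libraries were compared between regions to ask where each member is expressed. Akap5, Akap9, Akap1 and Akap11 were each higher in striatum than in the mean of the other 5 regions at both ages, and Akap12, Akap7 and Akap13 were lower. At 12 weeks 7 of 10 members were called in STR (67.5% of all genes were called in that contrast), 7 in PFC (60%), 8 in SSC (58.3%), 8 in HP (57.6%), 7 in TH (68.9%) and 8 in SN (70.9%). At 4 weeks it was 7 in STR (53.2%), 3 in PFC (43.9%), 4 in SSC (38.5%), 3 in HP (38.3%), 3 in TH (50.1%) and 9 in SN (59%). Most genes were called in each contrast at 12 weeks, and 38.3% to 59% at 4 weeks. The members' counts are to be read against that background, above it in some contrasts and below it in others. Of 60 pairs of member and region, 29 were called at 4 weeks and 45 at 12 weeks. The 27 called at both ages had the same direction in 27. The share of all genes called at both ages, or keeping their direction, was not computed, so this count is a description only.

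**Figure D2:**
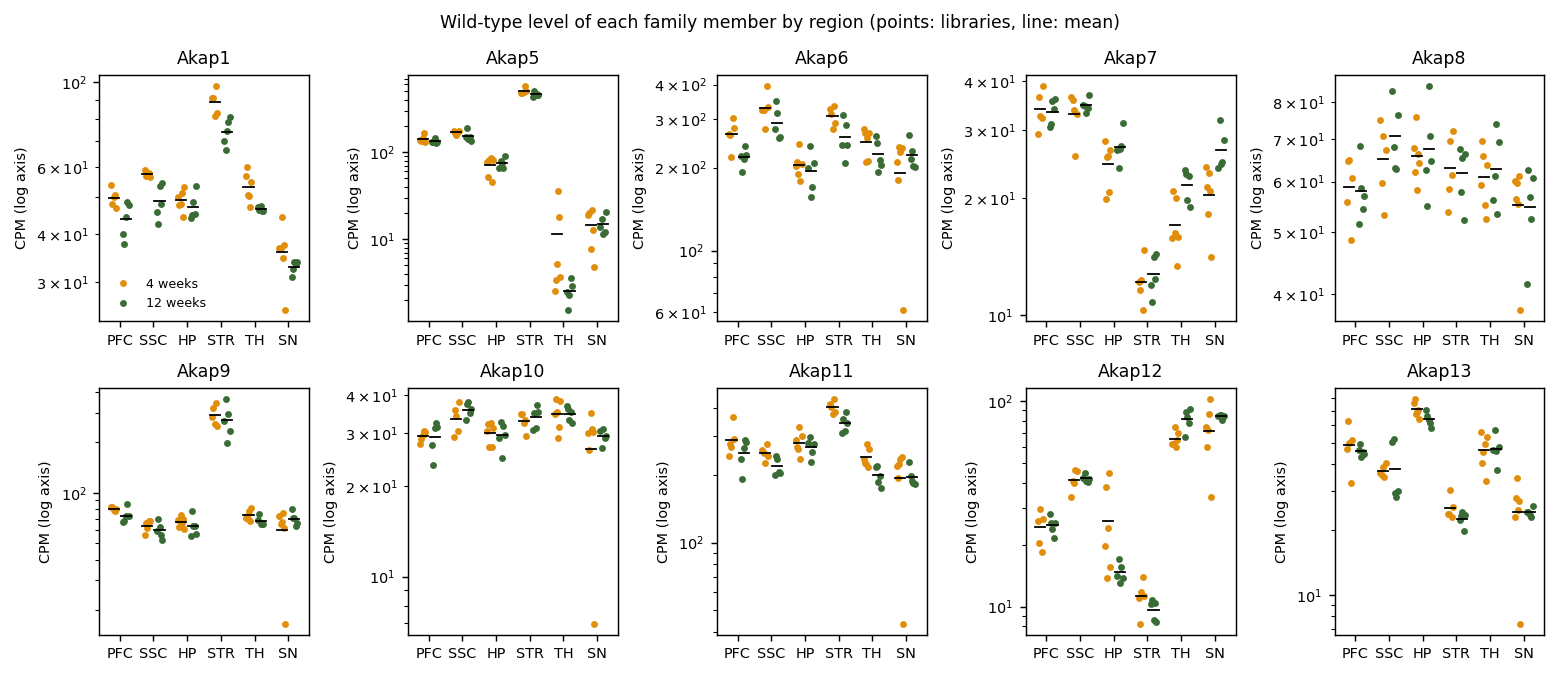
Level of each of the 10 members in WT by region, in CPM on log axes whose range differs between panels; points are libraries at 4 weeks (orange) and 12 weeks (green) and lines are means. Akap5 spans from 464 CPM in striatum to 2.54 in thalamus at 12 weeks, while Akap8 and Akap10 stay within 1.29-fold and 1.23-fold over the 6 regions.

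Akap5 is the postsynaptic member of the family, a membrane scaffold that holds PKA, protein kinase C and calcineurin near AMPA receptors and calcium channels. It showed the widest regional range of the 10. At 12 weeks the WT striatal libraries measured 428, 508, 457, 470 and 456 CPM of Akap5, the thalamic ones 2.47, 1.53, 2.30, 3.55 and 2.88. The lowest striatal library thus exceeded every thalamic library by far, and the ratio of means was 182. The order at 12 weeks was striatum at 464 ± 29.2, somatosensory cortex at 152 ± 21.3, prefrontal cortex at 133 ± 7.84, hippocampus at 75.4 ± 10.6, substantia nigra at 14.97 ± 3.81 and thalamus at 2.54 ± 0.747 CPM (SD, n = 5). Of these neighbours, the 2 cortical regions were not told apart and the others differed (adjusted p under 0.05). Striatum lay 3.73 above the mean of the other regions at 12 weeks and 3.56 at 4 weeks, and thalamus 5.34 below at 12 weeks (log2 difference -5.34). At 4 weeks the ratio of the highest to the lowest region was 44.0, and the thalamic value of Akap5 rested on 2 libraries described below.

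Akap9, a large coiled-coil protein of the Golgi and centrosome whose short splice form binds NMDA receptors, was also highest in striatum. In 12-week WT striatum Akap9 measured 269, 362, 197, 297 and 234 CPM, and in prefrontal cortex 66.7, 67.9, 72.5, 86.1 and 72.6. All 5 striatal libraries lay above every library of the other regions, whose means ran from 60.0 to 73.2 CPM and were not told apart from their neighbours. Striatum exceeded the other regions by 2.01 at 12 weeks and 2.14 at 4 weeks on the log2 scale. Akap9 (chr5:3928054-4081310, plus strand) overlaps the end of Cyp51 on the opposite strand and a pseudogene on its own strand, and the sources used here do not say whether counting used the strand, so its level is uncertain to that extent.

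Akap1, which ties PKA to the outer mitochondrial membrane, and Akap11 shared the striatal peak at a smaller size. Akap1 measured 74.1 ± 5.93 CPM in 12-week WT striatum, 43.8 to 48.9 in the cortices, hippocampus and thalamus, and 32.9 ± 1.22 in substantia nigra (SD, n = 5). The 4 middle regions were not told apart from their neighbours, while striatum and substantia nigra each differed from the next region. Striatum was 0.77 above the other regions at 12 weeks and 0.90 at 4 weeks. An antisense gene overlaps Akap1, which makes its level uncertain in the same way. At 12 weeks Akap11 stood at 341 ± 31.0 CPM in striatum, 266 ± 25.5 in hippocampus, 252 ± 38.4 in prefrontal cortex, 219 ± 19.6 in somatosensory cortex, 200 ± 19.7 in thalamus and 197 ± 19.1 in substantia nigra (SD, n = 5). Only striatum and hippocampus differed as neighbours in that order. Akap11 was 0.60 higher in striatum at 12 weeks (adjusted p = 1.22e-08) and 0.78 higher at 4 weeks (adjusted p = 0.00416).

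Akap12, a membrane scaffold of PKA and protein kinase C also called gravin, ran the opposite way. At 12 weeks it measured 84.4, 85.6, 85.2, 80.7 and 84.8 CPM in WT substantia nigra and 10.3, 10.7, 8.56, 10.4 and 8.43 in striatum. The 2 regions were far apart, with a ratio of means of 8.70. Thalamus, at 81.7 ± 9.43 CPM, was not told apart from substantia nigra, and below them somatosensory cortex (42.0 ± 1.68), prefrontal cortex (24.9 ± 2.41), hippocampus (14.7 ± 1.60) and striatum (9.67 ± 1.09) each differed from the next (SD, n = 5). Akap12 was 1.71 higher in substantia nigra and 1.64 higher in thalamus than in the other regions, and 2.05 lower in striatum (log2 difference -2.05).

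Akap13, which also activates the small GTPase RhoA, had its highest level in hippocampus. It measured 70.3, 65.9, 63.3, 61.4 and 58.6 CPM in 12-week WT hippocampus against 22.1, 23.0, 24.1, 19.7 and 23.3 in striatum. These did not overlap, and hippocampus was 0.93 above the other regions at 12 weeks and 1.06 at 4 weeks. In 12-week somatosensory cortex Akap13 fell into 2 levels, 50.3 and 52.2 CPM in WT 1 and 2 and 28.2 to 30.1 in WT 3, 4 and 5. Akap7, a small membrane-bound anchor of PKA at ion channels, was lowest in striatum, at 12.7 ± 1.5 CPM, and highest in the cortices, at 34.7 ± 1.33 in somatosensory and 33.4 ± 2.54 in prefrontal cortex (SD, n = 5, 12 weeks). Striatum lay 1.16 below the other regions (log2 difference -1.16). Antisense genes overlap Akap7, so its level carries the same uncertainty.

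Akap6, Akap8 and Akap10 varied least. Akap6, the anchor at the nuclear envelope, ranged from 195 ± 32.4 CPM in hippocampus to 291 ± 40.5 in somatosensory cortex at 12 weeks (SD, n = 5), and none of its 5 pairs of neighbouring regions was told apart. The nuclear matrix protein Akap8 ranged from 54.8 ± 8.37 CPM in substantia nigra to 70.7 ± 8.93 in somatosensory cortex, again with no neighbours told apart. For Akap10, a mitochondrial anchor that binds both types of regulatory subunit, the regional means lay between 29.1 and 35.9 CPM, and striatum and hippocampus were the neighbours that differed. Against the mean of the other 5 regions at 12 weeks, Akap6 was called higher in somatosensory cortex and lower in hippocampus. Akap8 was called higher in 1 region and lower in 1, and Akap10 higher in 2 and lower in 2. Some calls of Akap8 and Akap10 were lost when 1 animal was left out.

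At 4 weeks these contrasts depended on the libraries that stand apart. Without them, 7 members in place of 3 were called in prefrontal cortex, 6 in place of 3 in hippocampus and 7 in place of 3 in thalamus. The share of all genes called also rose, to 57%, 52.3% and 55.1%. The striatal differences were close to those with all libraries: Akap5 3.68, Akap9 2.13, Akap1 0.92, Akap11 0.71, Akap12 -1.88, Akap7 -1.06 and Akap13 -0.77. In thalamus the difference of Akap5 was -4.93 without them and -3.79 with them. In substantia nigra Akap11 lay at -0.38 without them and at -0.80 with them, and Akap8, at -0.12, was no longer called (adjusted p = 0.19).

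Levels were compared between members per kilobase of the longest annotated transcript. On that scale Akap11 ranked 1 of 10 in WT prefrontal cortex, somatosensory cortex, hippocampus, thalamus and substantia nigra at both ages, with 17.7% to 26.0% of the summed level of the 10. In striatum Akap5 ranked 1, at 69.3 ± 4.4 CPM per kb and 35.7% of the sum at 12 weeks, and Akap11 ranked 2, at 36.4 ± 3.3 and 18.7% (SD, n = 5). Akap12 and Akap13 were the lowest 2 in striatum, at 1.56 and 1.78 CPM per kb. In thalamus Akap5 was last, at 0.381. The scale rests on the transcript chosen: with the median transcript length instead, Akap9 stood at 457, Akap11 at 111 and Akap5 at 69.4 CPM per kb in 12-week striatum.

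Likeness of regional pattern was measured as the Pearson correlation of log2(CPM + 1) over the 12 WT group means, among 13110 genes with a mean of at least 2 CPM. The 2 genes named for each member are the highest of all these genes over only 12 points, so the values are descriptive. Sample numbers recur across the regions of an age, so the means may not be independent. Closest to Akap5 were Phactr1 (0.997) and Dclk3 (0.986), and closest to Akap9 were Fancb (0.988) and Sgk3 (0.986). Akap12 was nearest to Arl4c (0.990) and Fgfr1op (0.986), and Akap1 to Atxn1l (0.983) and Mprip (0.973). For Akap11 the nearest were Slc25a53 (0.974) and Arid1a (0.967), and for Akap7 Plcd1 (0.980) and Vps26a (0.971). The nearest genes were Itgav (0.947) and Ralgapb (0.945) for Akap6, Gdap2 (0.956) and Hnrnpa3 (0.937) for Akap8, Gpatch8 (0.965) and Zbtb38 (0.957) for Akap10, and Aagab (0.954) and Gm2762 (0.951) for Akap13. Within the family, Akap11 and Akap1 were alike (0.883) and Akap11 and Akap12 were opposed (-0.889), as were Akap5 and Akap12 (-0.847).

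Between 4 and 12 weeks 3 differences among the members' WT levels were called. Akap1 was lower at 12 weeks in somatosensory cortex (log2 difference -0.24, adjusted p = 0.0213) and striatum (-0.24, adjusted p = 0.0461), and Akap12 was higher in thalamus (0.34, adjusted p = 0.0218). In somatosensory cortex Akap1 measured 56.9, 56.6, 59.0, 56.7 and 58.0 CPM at 4 weeks and 45.8, 42.7, 53.6, 48.2 and 54.4 at 12 weeks, without overlap. Thus 1 of 10 members was called in each of somatosensory cortex (22.8% of all genes), striatum (13.6%) and thalamus (14.3%). With edgeR 0 were called in prefrontal cortex (13.8%), hippocampus (12.9%) and substantia nigra (4.24%). There 2, 2 and 1 members had an unadjusted p under 0.05, against 29.9%, 29.5% and 21.1% of all genes. DESeq2 called 1, 1 and 0 members in these regions. DESeq2 called 2 members in somatosensory cortex (26.8% of all genes with DESeq2), 2 in striatum (18.4%) and 5 in thalamus (20.3%). Among them was Akap11, lower at 12 weeks in all 3 regions (-0.22, -0.23 and -0.26). The DESeq2 share of all genes was 18.7% in prefrontal cortex, 19% in hippocampus and 11.5% in substantia nigra. Thalamic Akap5 had a WT mean of 11.5 CPM at 4 weeks (2.53 to 36.01, the highest 2 in WT 913 and 914) and 2.54 at 12 weeks, a DESeq2 difference of -2.19. Of the 4-week libraries, 16 held whole numbers in 5.55% or fewer of their nonzero values, and every other library in 17.3% or more. Without these, Akap1 was not called in somatosensory cortex (adjusted p = 0.0691) or striatum (0.0762). The striatal call of Akap1 was lost in 6 of 10 fits that left out 1 library, and that of Akap12 in thalamus when 12-week WT 2, 3 or 5 was left out (largest adjusted p = 0.0608). Age and any step done separately for the 2 ages cannot be told apart.

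The comparison of KO with WT asked whether the other 9 anchoring genes change when Akap11 is lost. Outside striatum 0 of the 9 were called at either age. In striatum Akap5 was called at 4 weeks, lower in KO, and 0 of 9 at 12 weeks. The share of all genes called, KO against WT, was at 4 weeks 3.35% in STR (1.59% higher and 1.75% lower), 0.0125% in PFC, 0.0564% in SSC, 0.00609% in HP, 0.0128% in TH and 0.00617% in SN. At 12 weeks it was 4.42% in STR, 0.0123% in PFC, 0.0252% in SSC, 0.00608% in HP, 0.0064% in TH and 0.0364% in SN. Few genes of any kind were called outside striatum, and the absence of calls among the members there is to be read against that background.

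Across the 108 tests of the 9 other members in 12 sets of region and age, 50 differences were above 0 and 58 below, with a median of -0.005. An unadjusted p under 0.05 was found in 10 of the 108, 5 higher and 5 lower in KO, or 9.26%. Over all genes in the same 12 sets the share was 8.73%, from 2.91% to 17.9% in single sets, so the members' share lay near that of all genes. Besides Akap5, the 8 other members stayed within 0.5 on the log2 scale in 96 of 96 tests, from -0.31 (Akap1) to 0.47 (Akap7), both in 4-week striatum. The upper end of the 95% interval was below 0.5 in 97 of 108. In HET, 0 of 108 were called with edgeR and 0 with DESeq2. An unadjusted p under 0.05 with edgeR was found in 7, or 6.48%, 3 higher and 4 lower. Over all genes that share ran from 1.65% in 12-week SSC to 16.3% in 4-week TH. The share of all genes called in HET with DESeq2 ran from 0.00606% in 12-week SN to 2.47% in 4-week TH. The share of all genes called in HET at 4 weeks was 0.00626% in PFC, 0.00627% in SSC, 0% in HP and SN, 0.00648% in STR and 0.00639% in TH. At 12 weeks it was 0.00613% in PFC, 0.00629% in SSC, 0.00608% in HP, 0.0064% in STR and TH and 0.00606% in SN.

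Averaging the 6 regions narrowed the intervals. With limma 0 of 9 other members were called in KO at 4 weeks (0.648% of all genes were called) and 0 at 12 weeks (0.129%). At 4 weeks 2 had an unadjusted p under 0.05 (10.8% of all genes). They were Akap5 at -0.34 (95% interval -0.59 to -0.09, adjusted p = 0.241) and Akap12 at 0.20 (0.02 to 0.37, adjusted p = 0.388). Without the libraries that stand apart these values were -0.19 and 0.07. At 12 weeks 0 members had an unadjusted p under 0.05 (5.39% of all genes). With all libraries kept, the largest upper bound among the 9 was a 1.29-fold rise at 4 weeks and a 1.14-fold rise at 12 weeks. No bound is given for the 4-week fit without the libraries that stand apart. Intervals of this width do not show that the levels were the same. Each is a 95% interval for 1 member taken alone, averaged over regions, and joint coverage of the 9 was not computed. In edgeR without the animal block, Akap5 was called at 4 weeks (-0.46, adjusted p = 0.0341) and 0 of 9 at 12 weeks. The 4-week fit without the block called 376 genes in place of 114. In HET 0 of 9 were called at either age (0.0114% and 0.0056% of all genes), and 0 had an unadjusted p under 0.05 (2.6% and 2.47%). For HET edgeR without the block called 0, and the largest upper bounds were 1.23-fold and 1.16-fold.

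**Figure D3:**
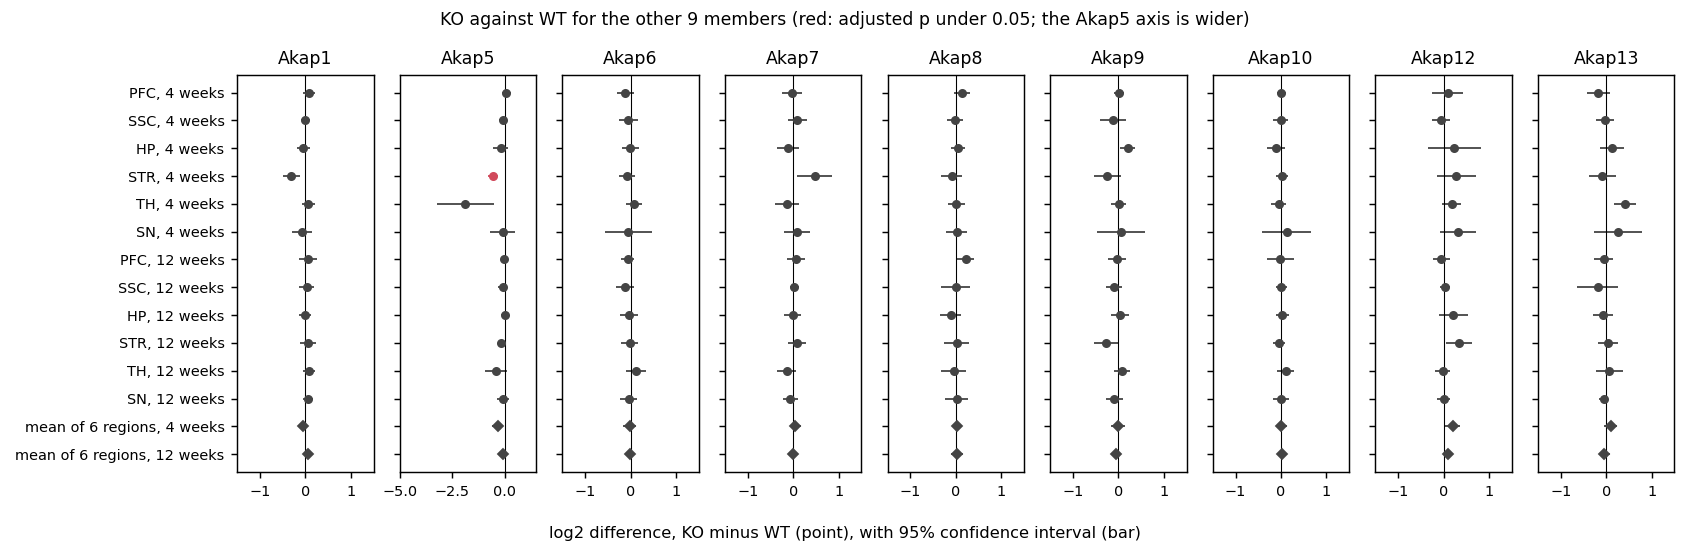
Log2 difference, KO minus WT, of the 9 other members in each region and age (circles) and over the mean of 6 regions (diamonds), with 95% confidence intervals; red marks an adjusted p under 0.05 and the Akap5 panel has a wider axis. In 4-week striatum Akap5, at -0.55, is the point in red, and the widest interval is that of Akap5 in 4-week thalamus, at -1.88.

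In 4-week striatum Akap5 measured 476, 480, 497, 579 and 498 CPM in WT 142, 42, 913, 914 and 92, and 478, 474, 472, 504 and 422 in HET 11, 162, 22, 93 and 931. In KO 12, 161, 163, 51 and 932 it measured 455, 273, 299, 330 and 381 CPM. Every KO library was below every WT library, and KO 161, 163 and 51 were the lowest 3. The log2 difference was -0.55 ± 0.12 (SE), with an adjusted p of 0.0182; 1.75% of all genes were called lower in this comparison. KO 161, 163 and 51 were also the KO libraries with high cortical marker scores, at 6.29, 5.25 and 5.78, against 0.447 in KO 12 and 0.549 in KO 932. WT 92 had a score of 5.09 and did not have a low Akap5 level. In WT cortex at 4 weeks Akap5 measured 143 and 168 CPM. The cause of the low Akap5 level in KO 161, 163 and 51 was not tested.

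Without the 3 KO libraries and WT 92, the Akap5 difference was -0.30 (adjusted p = 0.238). With the cortical score as a covariate, a setting chosen after the data were seen, it was -0.45 (adjusted p = 0.0227). The call was lost when only the 2 genotypes were fitted (adjusted p = 0.103) and without WT 914 (adjusted p = 0.0574), and was kept in the other 9 fits that left out 1 library. DESeq2 gave an adjusted p of 0.000494. At 12 weeks, when no striatal library had a cortical score above 0.844, Akap5 measured 428, 508, 457, 470 and 456 CPM in WT, 448, 538, 524, 521 and 423 in HET, and 383, 444, 412, 415 and 427 in KO. The groups overlapped, and the difference was -0.16 (unadjusted p = 0.0356, adjusted p = 0.266). The effect on Akap5 was not shown to differ between striatum and the other regions (difference -0.26, adjusted p = 0.845, at 4 weeks, all libraries). The other regions include thalamus, where the Akap5 difference moved from far below 0 to -0.26 without the libraries that stand apart, as given below. No value of the contrast without them is given, so it does not decide whether the regions differ.

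**Figure D4:**
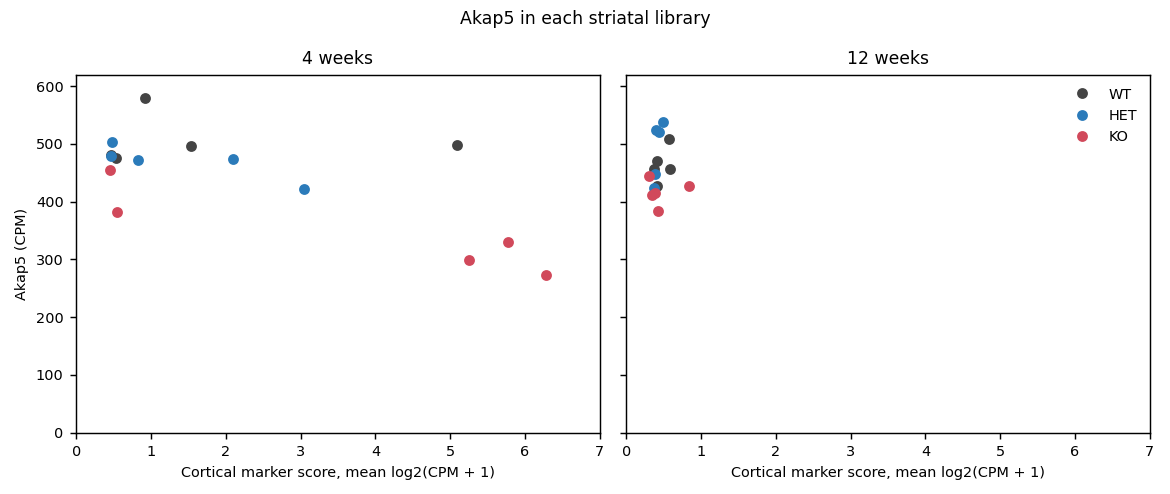
Akap5 in CPM in each striatal library against its cortical marker score, the mean log2(CPM + 1) of 6 cortical excitatory neuron genes, at 4 weeks (left) and 12 weeks (right), by genotype. At 4 weeks 3 KO libraries with scores of 5.25 to 6.29 hold 273 to 330 CPM and the 2 with scores under 0.6 hold 381 and 455, while WT libraries hold 476 to 579.

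Akap1 in 4-week striatum measured 90.8, 91.1, 81.8, 97.9 and 83.0 CPM in WT and 84.5, 55.3, 71.4, 70.1 and 77.5 in KO 12, 161, 163, 51 and 932. KO 12 overlapped the WT range and the other 4 KO libraries lay below it. The difference was -0.31 (adjusted p = 0.067; DESeq2 0.0306), and -0.18 without the libraries that stand apart (adjusted p = 0.292). At 12 weeks Akap1 measured 62.3 to 84.5 CPM in KO and 66.4 to 81.0 in WT. The 4-week difference of Akap1 was larger in striatum than in the mean of the other 5 regions, by -0.32 (95% interval -0.49 to -0.16, adjusted p = 0.0204), so that 1 of 9 was called in this contrast, where 2.07% of all genes were. Without the libraries that stand apart it was -0.15 (adjusted p = 0.426), and the call was lost without KO 161 (adjusted p = 0.18), KO 51 (0.0758) or WT 914 (0.116). At 12 weeks 0 of 9 were called with limma (3.91% of all genes), 2 had an unadjusted p under 0.05 (13.8% of all genes), and edgeR called 0.

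Akap7, Akap9 and Akap12 moved with the same 3 libraries. Akap7 measured 24.8, 17.0 and 20.2 CPM in KO 161, 163 and 51, above all WT libraries (10.3 to 14.7), and 10.6 and 12.3 in KO 12 and 932. Akap9 measured 214, 221 and 171 CPM in the 3, below all WT libraries (250 to 341), and 328 and 295 in the other 2. Akap12 measured 16.1, 14.1 and 19.8 CPM in the 3, above all WT libraries (8.27 to 13.9), and 9.19 and 9.40 in the other 2. With all libraries the differences were 0.47 (adjusted p = 0.175), -0.25 (adjusted p = 0.385) and 0.28 (adjusted p = 0.503). Without the libraries that stand apart they were -0.04, 0.04 and -0.29, so Akap7, Akap9 and Akap12 changed sign. Akap7 was called higher in KO when KO 12 was left out (0.60, adjusted p = 0.0332), a fit that called 1141 genes in place of 516. Akap13 measured 18.2 and 18.7 CPM in KO 12 and 932, below all WT libraries (22.8 to 30.5), and 27.2, 23.5 and 31.3 in KO 161, 163 and 51. Its difference was -0.09 with all libraries and -0.47 without those that stand apart (unadjusted p = 0.00246, adjusted p = 0.0688). In WT cortex at 4 weeks, Akap7 and Akap12 were higher and Akap1, Akap5 and Akap9 lower than in WT striatum. Whether the levels in KO 161, 163 and 51 are linked to their cortical scores was not tested.

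At 12 weeks in striatum Akap12 measured 10.3, 10.7, 8.56, 10.4 and 8.43 CPM in WT, 11.7, 9.76, 7.84, 10.5 and 6.84 in HET, and 13.4, 10.7, 11.0, 14.6 and 11.8 in KO. The lowest KO library lay just above the highest WT library. The difference was 0.34 (95% interval 0.05 to 0.63, adjusted p = 0.207). Akap9 at 12 weeks measured 269, 362, 197, 297 and 234 CPM in WT and 206, 274, 212, 219 and 213 in KO, with overlap, at a difference of -0.28 (adjusted p = 0.286). Neither was called.

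In 4-week thalamus 2 members differed without being called. Akap5 measured 2.53, 3.42, 5.23 and 3.71 CPM in WT 142, 23, 42 and 92, and 36.01 and 18.0 in WT 913 and 914. In KO it measured 1.91 to 5.12 CPM and in HET 1.31 to 3.95, so the WT group alone held high values. WT 913 and 914 had cortical scores of 5.44 and 2.81. The cause of their high Akap5 levels was not tested. The Akap5 difference was -1.88 in KO (adjusted p = 0.264) and -2.07 in HET (adjusted p = 0.209). When the libraries that stand apart were left out it was -0.26 in KO (adjusted p = 0.914) and -0.45 in HET (adjusted p = 0.894). Akap13 measured 33.4 to 56.1 CPM in 6 WT libraries and 52.3 to 68.8 in 5 KO libraries, a difference of 0.41 (unadjusted p = 0.00266, adjusted p = 0.212), or 0.26 without the libraries that stand apart (adjusted p = 0.688). At 12 weeks Akap13 in thalamus measured 37.6 to 57.3 CPM in WT and 41.8 to 63.4 in KO, and the groups overlapped. The remaining differences at an unadjusted p under 0.05 were Akap9 in 4-week hippocampus (0.20) and Akap8 in 12-week prefrontal cortex (0.22).

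As a sum per kilobase of longest transcript, the 10 members stood in KO at 66.7% of WT in 4-week striatum and at up to 82.6% elsewhere, in 4-week substantia nigra. The other 9 alone stood at 82.0% of WT in 4-week striatum, at 94.1% in 12-week striatum, and at 97.5% to 104.8% in the other 10 sets. In 4-week striatum the sum of the 9 was 173 ± 10.2 CPM per kb in WT (167 to 191) and 142 ± 16.9 in KO (126 to 167). At 12 weeks it was 158 ± 9.45 in WT and 148 ± 3.99 in KO (SD, n = 5). With the libraries that stand apart left out, the 9 stood in KO at 91.1% of WT in 4-week striatum (2 KO and 4 WT libraries), 102% in thalamus and 98.1% in substantia nigra, and all 10 at 73.9%, 79.4% and 76.4%. The sum of the 9 in 4-week substantia nigra thus lay above WT with all libraries and below it without these. In striatum its mean in KO was below that in WT at both ages, with and without them at 4 weeks. The sum weights members by longest transcript, and in striatum Akap5 is its largest part. With the median transcript length that place goes to Akap9 in 12-week WT striatum (457 CPM per kb), and the sums are not given on that scale.

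**Figure D5:**
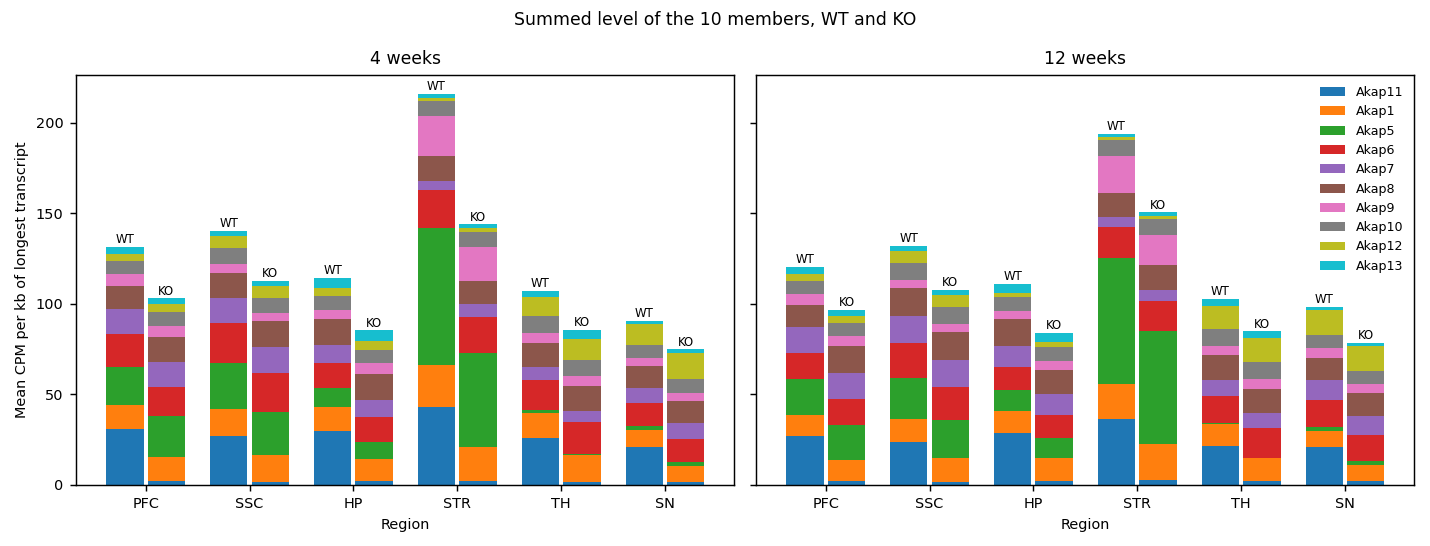
Summed level of the 10 members in WT and KO, as stacked mean CPM per kb of longest transcript, by region at 4 weeks (left) and 12 weeks (right). The Akap11 segment at the base nearly vanishes in KO, and the remaining 9 segments together hold 82.0% of the WT level in 4-week striatum and 94.1% in 12-week striatum. The largest of these 9 in striatum is Akap5, a place that depends on the transcript length used.

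Further genes with anchoring function were counted from a list of 21 in the table. In 4-week striatum 2 of 19 tested were called in KO, both higher, with a list median of 0.09 against -0.002 for all genes (3.35% of all genes called). At 12 weeks 1 of 20 was called, higher, with a median of 0.04 against 0.005 (4.42% called). Over the mean of the 6 regions 0 of 20 were called at either age (0.648% of all genes at 4 weeks and 0.129% at 12 weeks). The gene called at both ages was Akap3, an anchoring protein of the sperm tail. Akap3 reached the low-count limit of 10 counts at the median library size in 5 of 5 KO libraries at each age, against 1 WT and 0 HET libraries at 4 weeks and 0 WT and 1 HET at 12 weeks. It therefore entered the test through the KO group, and its calls, also within the counts of the list, are given as a description. It was barely expressed: at 12 weeks it measured 0.16, 0.20, 0.12, 0.22 and 0.03 CPM in WT, 0.09 to 0.27 in HET, and 0.37, 0.57, 0.65, 0.43 and 0.48 in KO. KO and WT did not overlap, and the Akap3 difference was 1.74 ± 0.39 (SE, adjusted p = 0.0156), or 3.34-fold.

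At 4 weeks Akap3 measured 0.06 to 0.28 CPM in WT, 0.14 to 0.20 in HET and 0.30 to 0.62 in KO, at 1.47 ± 0.33 (SE, adjusted p = 0.0234). Over the alternative fits the 12-week difference of Akap3 was 1.51 to 1.92 (largest adjusted p = 0.0485) and the 4-week difference 1.30 to 1.77 (largest adjusted p = 0.113). Without the low-count filter the 4-week adjusted p was 0.0504. Without the libraries that stand apart the 4-week difference was 1.55 (adjusted p = 0.113). The 12-week difference exceeded that of the other 5 regions by 1.79 (adjusted p = 0.0269). That call was lost without KO 3, 4 or 5 or WT 5, with a largest adjusted p of 0.18. Since the KO libraries brought Akap3 past the low-count limit in striatum, none of these adjusted p-values is used as support for a rise.

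Sphkap, which anchors the RI class of regulatory subunit, was called at 4 weeks with the libraries of high cortical score. It measured 39.0 and 40.4 CPM in KO 12 and 932, 117, 55.8 and 123 in KO 161, 163 and 51, 49.2 in WT 92 and 26.1 to 30.2 in the remaining 4 of WT. The Sphkap difference was 1.19 (adjusted p = 0.038), and 0.44 without the libraries that stand apart (adjusted p = 0.0299). The call held in 8 of 17 alternatives. It was lost with the cortical score as a covariate (0.66, adjusted p = 0.0529), with only the 2 genotypes compared (adjusted p = 0.146), with a covariate for the libraries of few whole numbers (0.0804), and in 6 fits that left out 1 library (largest adjusted p = 0.112). At 12 weeks Sphkap measured 28.4 to 36.6 CPM in WT and 35.6 to 41.7 in KO and was not called. Akap2, Pakap and Palm2akap2 share a locus, so their counts are uncertain.

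Among 9 PKA subunits and inhibitors, the regulatory subunit gene Prkar1a, whose product AKAP11 takes to autophagy, was called lower in KO over the mean of the 6 regions at both ages, as 1 of 9 (0.648% and 0.129% of all genes called). At 12 weeks it measured 508 to 525 CPM in KO somatosensory cortex and 576 to 647 in WT, without overlap. The Prkar1a difference over all regions was -0.17 at 12 weeks (95% interval -0.22 to -0.12, adjusted p = 3.14e-06) and -0.22 at 4 weeks (-0.32 to -0.12, adjusted p = 0.0244). The 12-week call held in 13 of 13 alternatives and the 4-week call in 13 of 17. Without the libraries that stand apart the 4-week value was -0.19 (adjusted p = 0.196), and without KO 161, KO 932 or WT 914 the adjusted p was 0.153, 0.108 and 0.131. In striatum at 12 weeks Prkar1a measured 577 to 626 CPM in KO and 584 to 679 in WT, and its difference lay 0.16 above that of the other regions (adjusted p = 0.0402). This last call held in 3 of 13 alternatives (largest adjusted p = 0.137).

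In single regions Prkar1a was called in 12-week somatosensory cortex (-0.25, adjusted p = 0.0398; 1 of 9, with 0.0252% of all genes), a call that held in 4 of 15 alternatives. The inhibitor Pkig was called in 4-week striatum (-0.29, adjusted p = 0.0465; 1 of 9, with 3.35% of all genes), and held in 5 of 17. Without the libraries that stand apart Pkig lay at -0.29 and was not called (adjusted p = 0.201). Prkar2a, a second regulatory subunit, lay 0.25 higher in 12-week striatum relative to the other regions (adjusted p = 0.0402), and held in 5 of 13. The medians of the 9 were -0.06 at 4 weeks and -0.007 at 12 weeks over all regions. The largest all-region change of the list at 4 weeks was that of Pkib, another PKA inhibitor, at 0.23 (adjusted p = 0.188).

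Of 14 binding partners of AKAP11 outside PKA, 0 were called in 4-week striatum (3.35% of all genes) and 1 at 12 weeks (4.42%), the kinase gene Gsk3b, which was lower in KO (-0.34 ± 0.08 SE, adjusted p = 0.0172). The list's medians were -0.09 and -0.02. Of 13 enzymes and targets that other members anchor, 0 were called at 4 weeks and 2 at 12 weeks in striatum, against the same 3.35% and 4.42% of all genes, both subunit genes of calcineurin, the phosphatase that Akap5 anchors. Ppp3ca was lower in KO by -0.34 ± 0.07 (SE, adjusted p = 0.0123) and Ppp3r1 by -0.27 ± 0.07 (SE, adjusted p = 0.0434). The medians of that list were -0.09 and -0.06. Gsk3b and Ppp3ca were called in 15 of 15 alternatives at 12 weeks and Ppp3r1 in 5 of 15. Relative to the other 5 regions Gsk3b lay at -0.31, Ppp3ca at -0.42 and Ppp3r1 at -0.33, all called, in a contrast that called 3.91% of all genes. Over the mean of the 6 regions 0 of either list were called at either age (0.648% of all genes at 4 weeks and 0.129% at 12 weeks). In HET 0 genes of the 4 lists were called in striatum or over the mean of the 6 regions. The HET share of all genes at 4 and 12 weeks was 0.00648% and 0.0064% in striatum, and 0.0114% and 0.0056% over that mean.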

How the data were processed

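RNA was taken from regions dissected from frozen brains on a cryostat, 200 ng of total RNA per library went into a stranded mRNA kit, and libraries were labelled by genotype, age, region and sample number, per the labels' protocols. The deposited table holds expected counts per gene symbol, made by the authors. Salmon and mm10 are named in the submitters' processing notes, while the sources used here do not give their roles, Salmon's version or the strand setting. Estimated counts of genes with overlapping or similar transcripts may be split between them.

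Expected counts were rounded for testing. CPM were computed with TMM factors over all 186 libraries. Each region and age was fitted with its 3 genotypes by edgeR 4.0.16 (quasi-likelihood test, TMM, filterByExpr). Means over regions, striatum against the other regions, and WT regions were fitted by limma 3.58.1 (voom) with the animal as a block, taken as age, genotype and sample number, which the labels do not state to be an animal. The within-animal correlation was 0.0374 at 4 weeks and 0.114 at 12 weeks. P-values were adjusted over all genes of a comparison by the Benjamini-Hochberg method, with R 4.3.3. DESeq2 1.42.0 was an alternative, beside other scaling, no low-count filter, 2 genotypes only, covariates, leaving out the libraries that stand apart, and leaving out each library. The scripts were tested on simulated data.

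The members, the gene lists and the marker lists were chosen with earlier results of these data known. All 10 members are described. Of the listed genes, those called in a KO comparison and the list's largest all-region change were named: for 4 weeks Akap3 (0.52), Pkib, Iqgap2 (-0.13) and Ppp3ca (-0.17), and for 12 weeks Akap3 (0.33), Prkar1a and Iqgap2 (-0.07). The leading gene of the remaining list at 12 weeks is not reported here. Annotation was GENCODE on GRCm38, and promoters came from RefSeq.

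At 12 weeks sample numbers 1 to 5 recur across genotypes. The labels do not say that a number marks a shared animal, litter or day. Over 60 pairs of the same number the correlation of deviations ran from -0.264 to 0.650 and was over 0.1 in 34. Every pair was over 0.1 in 1 of 12 sets, hippocampus KO (0.100 to 0.310), so the numbers were not treated as pairing the samples of the series.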

Additional observations from a re-analysis of the deposited data

Results flagged for a closer look

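Single libraries were flagged as the outlying lowest or highest of their group in 27 of 360 sets of member, region, age and genotype. That is 7.5%, where chance gives about 1 in 20. The sets are not independent, since 1 library can be flagged for several members. Some gaps are small, as for Akap12 in 12-week substantia nigra, at 80.7 CPM in WT 4 against 84.4 to 85.6. Of these, 17 were at 4 weeks and 10 at 12 weeks, and 7 were in 4-week substantia nigra.

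In 4-week substantia nigra, WT 92 accounted for Akap11 at 43.6 CPM (195 to 241 in the other 5 libraries), Akap10 at 6.99 (26.3 to 35.01), Akap6 at 60.8 (180 to 237), Akap8 at 37.7 (55.4 to 61.3) and Akap9 at 16.6 (62.0 to 75.7). Its low values for long transcripts are given above, and their part in these results was not tested. In KO libraries of the same region, Akap1 was 38.9 CPM in KO 91 (32.1 to 33.9 in the others) and Akap13 was 35.6 in KO 163 (25.2 to 28.0).

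In 4-week striatum Akap11 was 16.9 CPM in KO 161 (21.3 to 21.7 in the other KO libraries), one of the libraries with high cortical markers, and Akap5 was 579 in WT 914 (476 to 498). KO 12 stood high in 4-week thalamus for Akap10 at 38.9 CPM (31.2 to 33.1) and Akap6 at 316 (247 to 252). Other 4-week values that stood apart were Akap12 at 60.5 in thalamus HET 931, Akap8 at 80.0 in thalamus HET 93, Akap13 at 29.9 in somatosensory cortex HET 162, Akap9 at 103.5 in somatosensory cortex HET 93, Akap6 at 243.6 in hippocampus KO 51 and Akap6 at 310.3 in prefrontal cortex HET 941.

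At 12 weeks library 2 of HET was flagged in prefrontal cortex for Akap1 at 36.8 CPM (47.0 to 49.5) and Akap8 at 79.2 (61.0 to 65.6). In hippocampus it was flagged for Akap1 at 46.8 (50.2 to 51.2). KO 2 had Akap1 at 40.6 in hippocampus (47.9 to 49.95) and Akap9 at 273.6 in striatum (206 to 219). The remaining values were Akap12 at 80.7 in substantia nigra WT 4 (84.4 to 85.6) and Akap5 at 146 in prefrontal cortex WT 3 (126 to 131). Akap7 was 43.3 in prefrontal cortex HET 5 (28.5 to 32.7). In somatosensory cortex Akap7 was 36.7 in HET 3 (33.9 to 34.2) and 31.9 in KO 5 (35.8 to 37.1).

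The KO difference of Akap1 at 4 weeks was lower in striatum than in the mean of the other 5 regions by a test of that contrast (-0.32, adjusted p = 0.0204 with limma), and it was -0.15 (adjusted p = 0.426) without the libraries that stand apart.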

How the results depend on the processing

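No result changed direction while called. In 4-week striatum the number of the 9 other members called in KO was 1 (3.35% of all genes). It was 2 with DESeq2 (6.34%), 0 with only the 2 genotypes compared (174 genes called) and 0 without the libraries that stand apart (2.65%). When 1 library was left out the number was 0 to 3. It was 0 without WT 914 and 3 without KO 12, with Akap7 higher in KO (1141 genes called). In 12-week striatum it was 0 (4.42% of all genes). It was 1 with the sample number as a replicate block (Akap12, 0.35, adjusted p = 0.0488), a fit that called 992 genes in place of 691. The sample numbers do not pair the samples by the labels, and in 22 of 60 pairs the library correlated best with its own number. In hippocampus KO, where every pair was over 0.1, the block called 0 as before. Over the mean of 6 regions at 4 weeks edgeR without the animal block called 1 in place of 0, and 376 genes in all in place of 114. For striatum against the other regions the count was 1 at 4 weeks (2.07% of all genes). It was 2 in edgeR without the block (619 genes called in place of 364) and 0 without the libraries that stand apart (1.13%). When 1 animal was left out it was 0 to 2 (2 without KO 12, Akap1 and Akap7, with 614 genes called). At 12 weeks it was 0 (3.91%), and 0 to 1 when 1 animal was left out (1 without WT 3, with 811 genes called).

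For WT regions at 4 weeks, leaving out 1 WT animal gave 2 to 5 members in prefrontal cortex, 2 to 4 in somatosensory cortex, 1 to 5 in hippocampus and 3 to 5 in thalamus; leaving out the libraries that stand apart gave 7, 6 and 7 in prefrontal cortex, hippocampus and thalamus. At 12 weeks hippocampus gave 5 to 7. Between ages, DESeq2 called 1, 2, 1, 2 and 5 members in prefrontal cortex, somatosensory cortex, hippocampus, striatum and thalamus. Its share of all genes called there was 18.7%, 26.8%, 19%, 18.4% and 20.3%. Leaving out libraries with few whole-number values gave 0 in somatosensory cortex and striatum, and leaving out 1 library gave 0 to 1 in prefrontal cortex, hippocampus, striatum and substantia nigra, 1 to 2 in somatosensory cortex and 0 to 3 in thalamus. The cause of these differences was not tested. For the other fits that left out 1 library or animal, the share of all genes called is not given, so these member counts are descriptions.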
